A study of Mus musculus with 12 samples.

Results

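The genes described here, 10 in all, were picked by symbol: Fst, Inhba, Inhbb, Bmp2, Bmp4, Bmp7, Gdf11, Acvr2a, Acvr2b and Acvr1b. They are 10 of 19954 genes listed in the table of both sexes, and 9 of them were among the 15467 genes that passed the filter on low counts. Inhba did not pass, with 0 to 14 counts per library. The genes were chosen by symbol with their mutant and wildtype read counts known, since Fst was 1 of 15 genes called between the genotypes in the authors' deposited table. Their genotype values are therefore given as a description, without a test.

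The study measured RNA of mouse retina at E15.5 by bulk sequencing, in 12 libraries that were each a pool of 12 retinas. Mutant embryos carried floxed Tbr2 alleles with Six3-Cre (Tbr2 f/f;Six3-Cre), in which Cre recombinase acts in the developing eye field, and the controls were wildtype. All embryos were of C57BL/6 strain background and received no treatment named in the labels. The 4 groups were mutant males, wildtype males, mutant females and wildtype females, with 3 libraries each, numbered 4, 5 and 6. Whether the wildtype embryos carried Cre or a floxed allele is not given in the sources used here. Retinas of more than 1 litter were mixed in the pools, so every error and p below measures the spread between pooled libraries.

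Activins, bone morphogenetic proteins (BMPs) and growth differentiation factors are secreted dimers of the transforming growth factor beta family. A ligand dimer brings type II receptors together with type I receptors, and the receptor complex phosphorylates SMAD proteins, which enter the nucleus with SMAD4. Activins and Gdf11 signal through the type I receptor kinase encoded by Acvr1b and related kinases to SMAD2 and SMAD3, whereas BMPs signal to SMAD1, SMAD5 and SMAD9. Follistatin, encoded by Fst, is a secreted protein that binds activins and Gdf11 and keeps them from their receptors. In the mouse retina, Gdf11 is known to limit the time during which progenitors make ganglion cells, and Bmp4 is known for dorsal patterning of the early eye.

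Total counts ran between 18514607 and 27072825 per library. The targeted gene Eomes, which encodes Tbr2, had 24.9, 21.2 and 27.4 CPM (the read count scaled to the same total in every library) in mutant males, against 56.8, 76.1 and 65.5 CPM in wildtype males. It had 9.62, 15.2 and 16.1 CPM in mutant females, against 53.8, 53.4 and 64.6 CPM in wildtype females. No mutant library reached a wildtype library, and Eomes had a log2 fold change of -1.76 (SE 0.15, with adjusted p = 0.000484 by Benjamini-Hochberg in edgeR). The counts are given per gene and can include reads of any exons that Cre leaves in place. All 10 progenitor markers and all 10 ganglion cell markers averaged at least 1 CPM. The mitochondrial transcript mt-Nd6 separated 5 libraries at 373 to 484 CPM (mutant male 4, wildtype male 5, mutant female 4, and wildtype females 4 and 6) from the other 7 at 9.70 to 48.4 CPM. Mutant male 6 had the fewest genes with a read, 16903, and the highest summed level of the progenitor, microglia, ciliary margin and surface ectoderm lists. Lens RNA varied most, with summed lens markers at 4.32 to 2070 CPM in mutant libraries and 8.86 to 859 CPM in wildtype libraries. In bulk RNA, fewer cells of a type and less RNA per cell cannot be told apart.

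The receptors and Gdf11 held the highest levels and the activin subunits the lowest. Levels of different genes are set side by side in FPKM, the deposited unit that divides counts by listed gene length and library total. Acvr2b, a type II receptor for activins and Gdf11, averaged 34.3 ± 5.32 FPKM in mutant libraries and 30.4 ± 2.48 FPKM in wildtype libraries (SD, n = 6 each, as for all levels below). Gdf11 averaged 23.4 ± 0.768 FPKM in mutant libraries and 23.6 ± 1.20 FPKM in wildtype libraries. The type I receptor gene Acvr1b was at 23.0 ± 1.80 FPKM in mutant libraries and 21.9 ± 0.916 FPKM in wildtype libraries. Acvr2a, the other type II activin receptor gene, followed at 7.0 ± 2.39 FPKM in mutant and 8.52 ± 1.70 FPKM in wildtype libraries.

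Below the receptors came Bmp7, a BMP ligand needed for normal eye development in the mouse, at 5.05 ± 0.976 FPKM in mutant and 4.63 ± 0.485 FPKM in wildtype libraries. Fst had 2.23 ± 0.442 FPKM in mutant and 3.62 ± 0.450 FPKM in wildtype libraries. Bmp4 stood at 1.45 ± 0.223 FPKM in mutant and 1.64 ± 0.399 FPKM in wildtype libraries. Its close relative Bmp2 was near 1 FPKM, with 1.23 ± 0.344 in mutant and 1.09 ± 0.166 in wildtype libraries. Inhbb, which encodes the beta B subunit of activin B, had 0.796 ± 0.0862 FPKM in mutant and 0.958 ± 0.138 FPKM in wildtype libraries. Inhba, which encodes the beta A subunit of activin A, was last at 0.0917 ± 0.150 FPKM in mutant and 0.0668 ± 0.0532 FPKM in wildtype libraries.

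With the listed lengths, the order of the 10 means was the same in both genotypes. Among the 6 wildtype libraries, neighbours in that order overlapped in 4 of 9 cases: Gdf11 with Acvr1b, Bmp7 with Fst, Bmp4 with Bmp2, and Bmp2 with Inhbb. The other 5 neighbours had separate ranges. The places of Acvr2b and Fst, and the level of Inhba, depended on the gene length. The listed length of Acvr2b is 1729 bases and its exons in GENCODE M21 cover 3928, and with the longer length its wildtype level was 13.4 ± 1.09 FPKM, below Gdf11 and Acvr1b. Fst has 2337 listed and 4589 annotated exon bases, and with the longer length its wildtype level was 1.85 ± 0.229 FPKM, overlapping Bmp4 and no longer Bmp7. With that length the order of the means differed between the genotypes. Fst at 1.14 FPKM was below Bmp4 at 1.33 and Bmp2 at 1.23 FPKM in mutant libraries, and Fst at 1.85 FPKM was above Bmp4 at 1.505 and Bmp2 at 1.09 FPKM in wildtype libraries. Inhba has 1957 listed and 6390 annotated exon bases, and with the longer length it had 0.0281 FPKM in mutant and 0.0205 FPKM in wildtype libraries, still the lowest. The length of a gene cancels in its own ratio between genotypes.

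**Figure D1:**
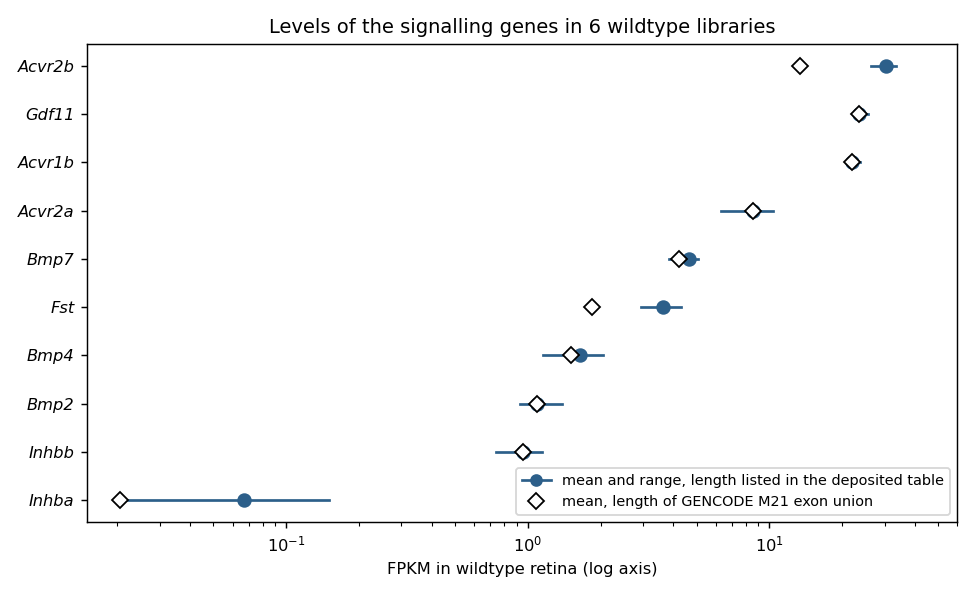
Mean level of the 10 signalling genes in the 6 wildtype libraries (horizontal log axis, FPKM), with circles and range lines for the gene length of the deposited table and open diamonds for the GENCODE M21 exon length. Acvr2b, Gdf11 and Acvr1b lie highest and Inhba lowest, and Inhba, Acvr2b and Fst shift left with the longer annotated length. The range of Inhba reaches 0, which a log axis cannot show, so the left end of its line is set for drawing and is no measured minimum.

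Among the ligand genes of the 10 described here, Gdf11 had the highest level and Inhba the lowest. The sequences before their transcription starts are shown, and whether CpG content goes with level was not tested. Each is the 250 bases upstream of the start on the gene's own strand, from RefSeq (GRCm38.p6), with CpG dinucleotides in capitals.
Gdf11, chr10:128891719-128891968, minus strand: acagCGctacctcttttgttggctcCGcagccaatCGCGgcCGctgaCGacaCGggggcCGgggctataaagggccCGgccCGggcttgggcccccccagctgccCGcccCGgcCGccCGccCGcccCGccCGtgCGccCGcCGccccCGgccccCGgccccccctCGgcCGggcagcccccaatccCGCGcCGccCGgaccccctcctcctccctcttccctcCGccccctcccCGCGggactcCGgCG
Inhba, chr13:16011601-16011850, plus strand: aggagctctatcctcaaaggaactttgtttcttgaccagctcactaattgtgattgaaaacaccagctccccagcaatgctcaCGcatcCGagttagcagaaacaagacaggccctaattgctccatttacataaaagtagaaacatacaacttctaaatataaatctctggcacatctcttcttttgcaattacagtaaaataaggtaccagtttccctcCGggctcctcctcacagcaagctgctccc
The Gdf11 window holds 33 CpG and is 81.2% G or C, and the Inhba window holds 3 CpG and is 43.2% G or C. Over 32851 RefSeq promoters of the same length the medians were 6 CpG and 52.4% G or C, and 4.03% of promoters had as many CpG as Gdf11 or more. A promoter was found for 7 of the 10 genes. None was found for Fst, Bmp2 or Bmp7, so these genes were not part of the motif search below. The receptor windows held 49 CpG at Acvr2a, 42 at Acvr1b and 24 at Acvr2b, while Inhbb had 21 and Bmp4 had 11. The T-box half-site TCACACCT, searched on both strands (reverse complement AGGTGTGA), was in 0 of the 7 windows and in 368 (1.12%) of the 32851 promoters. A match would only describe these letters, and its lack says nothing of binding.

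Fst was the member that differed most between the genotypes and was lower in the mutant. Follistatin RNA had 5.29, 4.76 and 4.27 CPM in mutant males, against 6.86, 8.40 and 7.98 CPM in wildtype males. In females it had 5.68, 7.01 and 4.32 CPM in mutant libraries, against 10.05, 8.89 and 8.64 CPM in wildtype libraries. Within each sex every mutant library was below every wildtype library, which held in this direction for 0.239% of the 15467 genes tested. Across sexes the groups touched, since mutant female 5 at 7.01 CPM exceeded wildtype male 4 at 6.86 CPM. The M21 annotation places the antisense gene Gm47040 over 68 bases of Fst. These levels rest on 79 to 164 counts per mutant library and 132 to 272 counts per wildtype library.

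The mean of Fst was 5.22 ± 1.03 CPM in mutant and 8.47 ± 1.05 CPM in wildtype libraries, a ratio of 0.616. The fitted log2 fold change was -0.70 (SE 0.13, 12 libraries), where the median over all tested genes was -0.01. It was -0.71 (SE 0.19) in males and -0.70 (SE 0.19) in females. The interaction of genotype and sex for Fst was 0.01 on the log2 scale (SE 0.26, with adjusted p = 1.0 by Benjamini-Hochberg in edgeR), so a difference between the sexes was not detectable with this error. Splitting the libraries by mt-Nd6 gave -0.70 (SE 0.16) within the 5 high libraries and -0.67 (SE 0.20) within the 7 low ones. Without the 3 libraries highest in the lens gene Cryaa it was -0.76. Over all 22 alternatives the value lay between -0.78 and -0.63. These fits reuse the counts on which Fst was chosen, so they show only how the value depends on the processing and are no separate observation.

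Few genes passed the threshold between the genotypes. Over all genes, the edgeR fit called 4 lower and 0 higher at an adjusted p of 0.05 (0.0259% and 0% of genes tested), with 451 genes (2.92%) at an unadjusted p under 0.05. Because Fst was chosen on this contrast, no verdict of a test is given for it. The authors' deposited tables give Fst a log2 fold change of -0.42 in both sexes, -0.35 in males and -0.31 in females. Fst was called there in both sexes together, but neither in males alone nor in females alone. Those deposited values are smaller in size than the fitted ones here.

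Gdf11, a ligand that follistatin binds, was nearly level across all libraries. Its lowest, median and highest values were 90.3, 96.5 and 97.2 CPM in mutant libraries and 90.9, 94.4 and 104 CPM in wildtype libraries. The 2 ranges overlap, with a log2 fold change of -0.02 (SE 0.05). Gdf11 had the smallest variation of the 10 genes, a coefficient of 4.13% over 12 libraries where counting error alone gives 2.20%. The ratio of Gdf11 to Fst in FPKM, with the listed lengths, was 10.8 ± 2.08 in mutant and 6.60 ± 1.04 in wildtype libraries, and the ranges met at 7.96 to 13.1 in the mutant and 5.21 to 8.02 in the wildtype. That ratio moves with Fst and is no separate observation, and a longer length of Fst would raise it by the same factor in both genotypes.

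The activin subunit genes were low. Inhba had 3, 0 and 14 counts in mutant males and 2, 0 and 7 in wildtype males. In females it had 4, 0 and 0 counts in mutant libraries and 5, 3 and 1 in wildtype libraries. Its 21 summed mutant counts and 18 summed wildtype counts are too few to show a difference, and mutant male 6 alone gave 14 of the 21. Inhba also lies in the M21 annotation opposite the pseudogene B230303A05Rik and the antisense gene Gm48444, and the strand setting of the counting is not given in the sources used here. Inhbb had 3.86, 3.26 and 3.35 CPM in mutant males and 4.89, 4.10 and 3.82 CPM in wildtype males. Mutant females had 2.84, 3.29 and 3.74 CPM, and wildtype females 4.06, 3.15 and 4.45 CPM. The groups overlapped in both sexes by 1 library or more, and the log2 fold change was -0.27 (SE 0.14), with -0.36 in the mt-Nd6-high libraries alone and -0.17 in the low ones.

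None of the 3 BMP ligands separated the genotypes. Bmp7 had 18.3, 17.6 and 25.5 CPM in mutant males and 16.4, 18.3 and 18.5 CPM in wildtype males. Mutant females had 17.6, 17.0 and 15.1 CPM, and wildtype females 16.1, 18.6 and 14.1 CPM. Mutant male 6 at 25.5 CPM stood apart from the other 11 libraries, and without it the log2 fold change was 0.02, against 0.11 (SE 0.11) with it. Bmp2 showed the same library highest, at 6.27 CPM, in mutant values of 2.96 to 6.27 CPM against 3.30 to 4.92 CPM in the wildtype. Its log2 fold change was 0.16 (SE 0.19), with 0.04 without mutant male 6, 0.06 without mutant female 4 and 0.25 without mutant female 6.

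Bmp4 was the ligand whose fitted genotype differences lay farthest apart between the sexes. Mutant males had 3.29, 3.26 and 3.13 CPM, against 2.39, 3.13 and 3.86 CPM in wildtype males. Mutant females had 3.24, 2.99 and 2.09 CPM, against 2.51, 4.17 and 4.25 CPM in wildtype females. The log2 fold change was 0.04 (SE 0.26) in males and -0.38 (SE 0.26) in females. Both sexes overlapped between genotypes, and the interaction of -0.42 (SE 0.37) did not pass, with adjusted p = 1.0 by Benjamini-Hochberg in edgeR and 0.819 to 1.0 in 22 other fits. The interaction was -0.08 (SE 0.60) within the libraries of high mt-Nd6 and -0.72 (SE 0.54) within those of low mt-Nd6. Each of these sets left a single library in at least 1 group, so these values cannot show whether the interaction depends on the set. The interaction was -0.24 without mutant female 6, -0.26 without wildtype male 4 and -0.63 without wildtype female 4. At 43 to 92 counts per library, counting error alone gives Bmp4 a coefficient of variation of 12.0%, where 20.9% was observed. Bmp4 overlaps the genes Gm15217 and Gm15222 on the opposite strand.

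**Figure D2:**
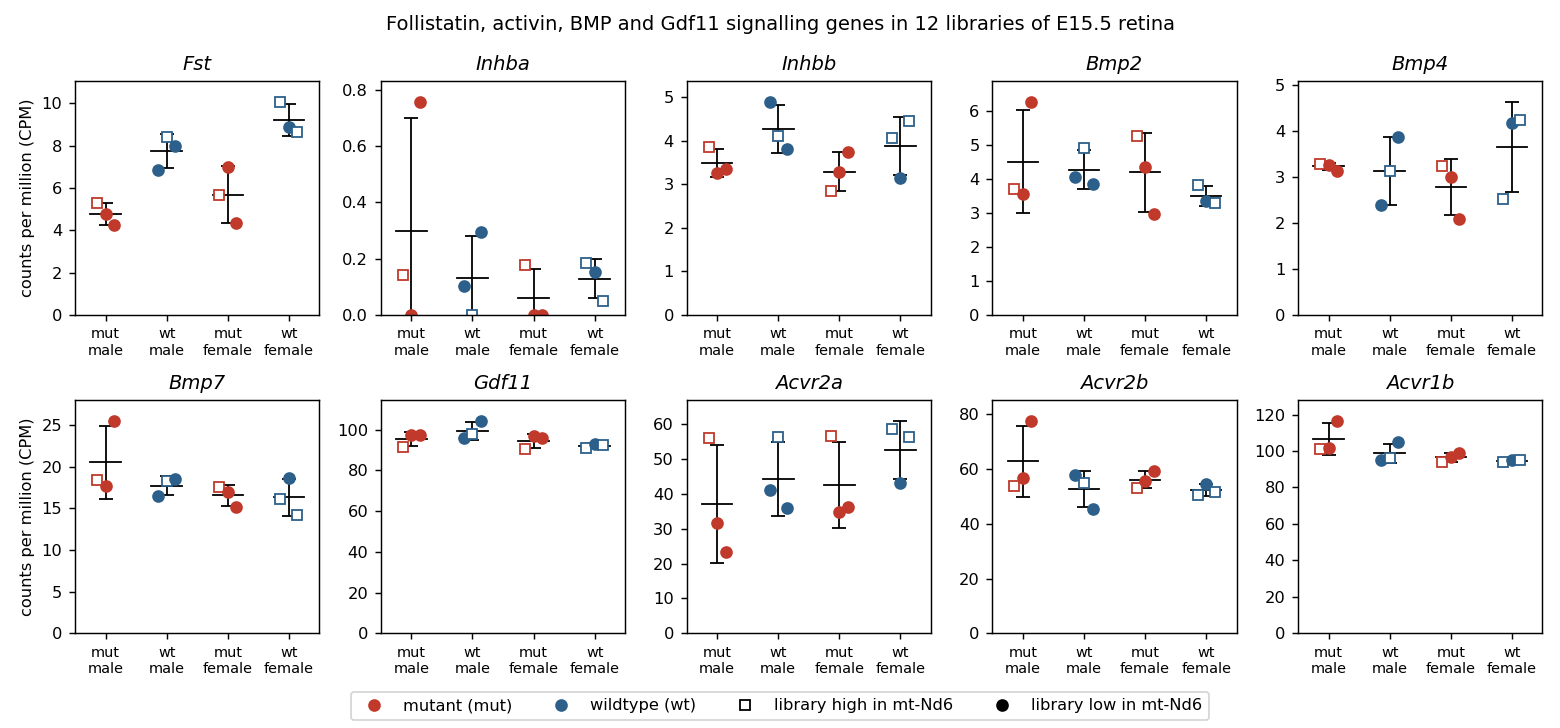
Level of each signalling gene (vertical axes, CPM, each from 0) in 12 libraries, with mutant left of wildtype in each sex; bars give the mean and SD of 3 libraries, and open squares are libraries high in mt-Nd6 (bars of Inhba that pass below 0 are cut there). Fst is lower in all 3 mutant libraries of each sex, at 4.27 to 7.01 CPM against 6.86 to 10.05 CPM in wildtype libraries, and Acvr2a is highest in the open squares of both genotypes.

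Acvr2a, a type II activin receptor gene, varied with the set of libraries. It had 56.1, 31.7 and 23.4 CPM in mutant males, against 41.0, 56.2 and 35.9 CPM in wildtype males. In females it had 56.7, 34.7 and 36.2 CPM in mutant libraries and 58.6, 43.1 and 56.1 CPM in wildtype libraries. The highest values, 56.1 to 58.6 CPM, belong to the 5 libraries high in mt-Nd6, and the other 7 lay at 23.4 to 43.1 CPM. The means were 56.7 ± 1.06 CPM over the 5 high libraries and 35.1 ± 6.43 CPM over the other 7, a ratio of 1.61. Acvr2a was the only 1 of the 9 genes tested whose values did not overlap between those library sets. Over all genes tested, 9.35% were higher in the high set without overlap and 6.35% were lower. A count of 1 in 9 is near these shares, so the split is not particular to the genes described here.

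The genotype difference of Acvr2a varied with which libraries were used. Its log2 fold change was -0.29 (SE 0.21) over 12 libraries, -0.21 (SE 0.09) with the library set as a term, -0.01 (SE 0.07) within the 5 high libraries and -0.39 (SE 0.12) within the 7 low ones. It was -0.48 without mutant male 4, -0.18 without mutant male 6, -0.19 without wildtype male 5 and -0.06 without the 3 libraries highest in Cryaa. The mutant had 2 of its 6 libraries in the high set and the wildtype 3 of its 6. Orc4, which encodes a subunit of the origin recognition complex, shares 446 bases with Acvr2a on the opposite strand and stood at 33.2 to 43.9 CPM in the high set and 7.62 to 20.3 CPM in the low set. The part of shared reads in these values was not tested.

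Acvr2b overlapped between the library sets, with a lower median in the high set. It lay at 50.7 to 54.9 CPM (median 53.1) in the high libraries and at 45.4 to 77.6 CPM (median 56.8) in the low ones. Its values were 53.9, 56.8 and 77.6 CPM in mutant males, against 57.8, 54.9 and 45.4 CPM in wildtype males. Mutant females had 53.1, 55.7 and 59.3 CPM, and wildtype females 50.7, 54.6 and 51.7 CPM. The genotypes overlapped, and mutant male 6 at 77.6 CPM was well above all other libraries. The log2 fold change was 0.17 (SE 0.09) with that library, 0.08 without it and 0.11 without wildtype male 6, and 0.02 within the high set and 0.27 within the low set, which holds mutant male 6. The ratio of Acvr2a to Acvr2b in FPKM was 0.327 ± 0.0156 in the 5 high libraries and 0.190 ± 0.0512 in the 7 low ones, without overlap. Acvr2b lies opposite the antisense gene Gm47320 over 3909 bases.

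Acvr1b, whose product is the type I receptor activated by activin-bound type II receptors, was close to level. It had 101, 102 and 117 CPM in mutant males, against 95.3, 96.3 and 105 CPM in wildtype males. In females it had 93.8, 96.5 and 99.0 CPM in mutant libraries and 93.9, 94.9 and 95.2 CPM in wildtype libraries. The groups overlapped in both sexes. Its log2 fold change was 0.06 (SE 0.05), and 0.03 without mutant male 6.

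**Figure D3:**
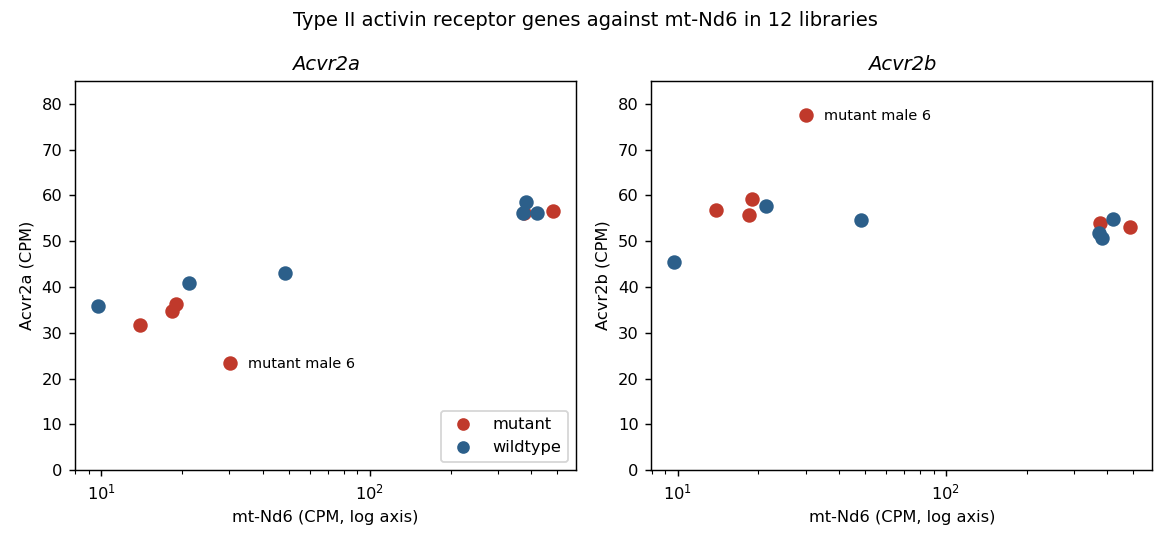
Level of Acvr2a (left) and Acvr2b (right) in CPM on the vertical axes against mt-Nd6 in CPM on a log axis, 1 point per library, mutant in red and wildtype in blue. Acvr2a lies at 56.1 to 58.6 CPM in the 5 libraries high in mt-Nd6 and at 23.4 to 43.1 CPM in the other 7. Acvr2b overlaps between these sets, at 50.7 to 54.9 CPM in the high libraries and 45.4 to 77.6 CPM in the others.

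**Figure D4:**
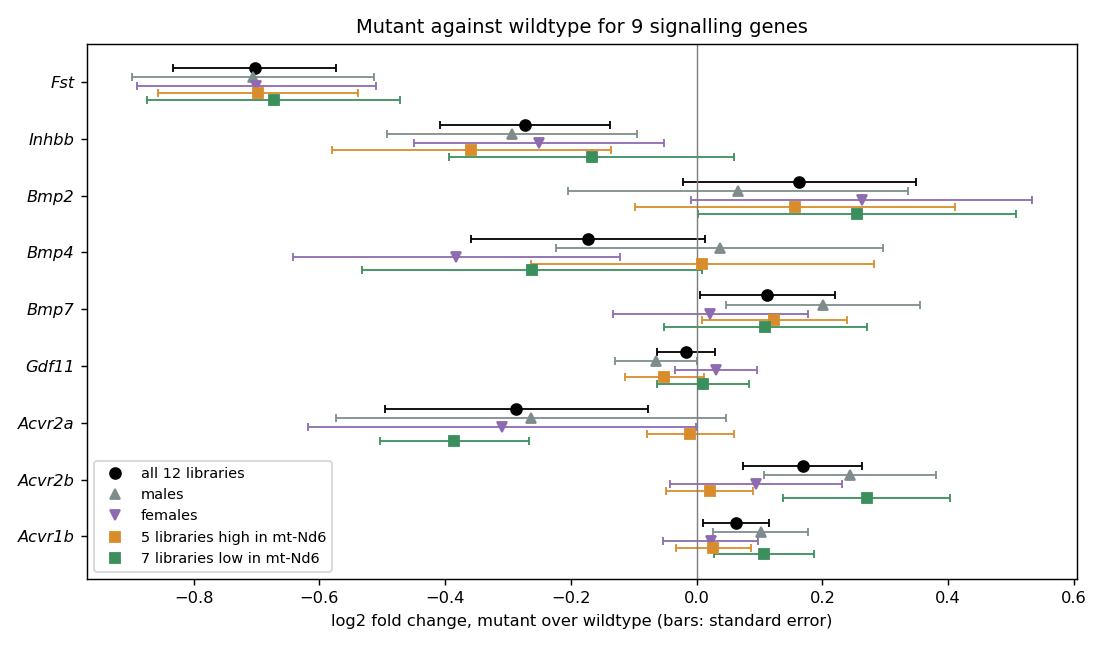
Log2 fold change of mutant over wildtype (horizontal axis) for the 9 genes tested, with the standard error as bars, over all 12 libraries, in each sex, and in the mt-Nd6-high and mt-Nd6-low libraries. Fst lies between -0.71 and -0.67 in all 5 fits, and Acvr2a is at -0.01 in the high set and -0.39 in the low set.

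Sex was the comparison that the choice of genes did not use. None of the 9 genes passed it, where 2 genes of 15467 (0.0129%, Xist and Eif2s3x) did in the edgeR quasi-likelihood test, and 0 of the 9 had an unadjusted p under 0.05, where 2.79% of genes did. DESeq2 and limma voom also called 0 of the 9. Fst averaged 7.43 ± 2.16 CPM in females and 6.26 ± 1.73 CPM in males, a female over male log2 difference of 0.27 (SE 0.13, with adjusted p = 0.879 by Benjamini-Hochberg in edgeR and 0.396 to 1.0 in 22 other fits). Its female mean was higher than the male mean in both genotypes, at 5.67 ± 1.34 against 4.77 ± 0.511 CPM in the mutant and 9.19 ± 0.750 against 7.75 ± 0.794 CPM in the wildtype (n = 3 each). Bmp7 averaged 16.4 ± 1.64 CPM in females and 19.1 ± 3.22 CPM in males, a log2 difference of -0.19 (SE 0.11, with adjusted p = 0.879 from edgeR and 0.412 to 1.0 in 22 other fits). Without mutant male 6 it was -0.10. That of Acvr2a was 0.25 (SE 0.21), and 0.04 within the libraries of high mt-Nd6. The Fst difference was 0.15 within those same 5 libraries and 0.30 within the other 7. The genotype by sex interaction called 0 of the 9 genes and 0 of all genes in edgeR, DESeq2 and limma voom, with 1.73% of all genes and 0 of the 9 at an unadjusted p under 0.05 in edgeR.

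The wider pathway was read from a list of 85 other genes, of which 76 were listed and 66 tested. Between the genotypes, 0 of the 66 were called in either direction and 0 had an unadjusted p under 0.05 in edgeR, against 0.0259% and 2.92% of all genes, and DESeq2 and limma voom also called 0. Of the 66, 32 lay above 0 and 34 below, with a median log2 fold change of -0.01, the same as that of all genes. Over all genes tested, 7323 lay above 0 and 8144 below. The counts above and below 0 by role, given below, were not tested against these. Values ran between -0.53 (Bmp3, a BMP family ligand at 0.440 CPM in mutant and 0.638 CPM in wildtype libraries) and 0.32 (Tgfbr3, a co-receptor gene at 4.29 CPM in mutant and 3.40 CPM in wildtype libraries). The smallest adjusted p in the list was 0.918.

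Among 9 other ligands, 2 lay above 0 and 7 below, with a median of -0.11. The most abundant was Tgfb2, which encodes a transforming growth factor beta, at 113 ± 8.28 CPM in mutant and 117 ± 10.5 CPM in wildtype libraries. Mstn, which encodes myostatin, the nearest relative of Gdf11, had 26.1 ± 6.96 CPM in mutant and 31.2 ± 6.25 CPM in wildtype libraries (log2 fold change -0.27, SE 0.19). Tgfb3 and Gdf6, a BMP-type ligand of the dorsal eye, had log2 fold changes of -0.11 and -0.16. Of 12 other receptor genes, 4 lay above 0 and 8 below, with a median of -0.08. The type I receptor genes Tgfbr1 and Bmpr1a had 233 ± 65.7 and 140.0 ± 41.1 CPM in mutant libraries, against 250 ± 46.0 and 157 ± 21.2 CPM in wildtype libraries. Of all 66 pathway genes tested, 8 were higher and 2 lower without overlap in the libraries high in mt-Nd6, against 9.35% higher and 6.35% lower over all genes. The count of 8 in 66 is near the share over all genes. The 8 included 4 of the 12 receptor genes, Tgfbr1, Bmpr1a, Bmpr1b and Bmpr2, which were singled out after their values were seen and not tested as a group. Tgfbr1 had 279 to 326 CPM in the high libraries and 156 to 230 CPM in the low ones.

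The 12 other extracellular inhibitors were evenly placed, 6 above and 6 below 0. Fstl1, a follistatin-like secreted protein gene, had 239 ± 11.8 CPM in mutant and 239 ± 4.45 CPM in wildtype libraries. Twsg1, a BMP modulator, had a log2 fold change of 0.03 (SE 0.08), and the BMP antagonist genes Chrdl1 and Nbl1 had 0.05 (SE 0.19) and -0.19 (SE 0.15). Of the 5 proteases that process ligand precursors or cleave inhibitors, 4 lay above 0, with values of 0.14 for Furin, 0.15 for Bmp1, 0.27 for Pcsk6 and -0.19 for Tll1. Among 12 SMAD genes and regulators, the median was 0.02 and the range -0.06 to 0.12. Smad2, the activin branch mediator, and Smad4, the shared partner, had log2 fold changes of -0.04 (SE 0.07) and 0.00 (SE 0.07).

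Of the 16 target genes of the pathway, 7 lay above 0 and 9 below, with a median of -0.01. The Id genes, direct targets of BMP signalling, showed 160.1 ± 16.6 CPM for Id3 in mutant and 153 ± 18.8 CPM in wildtype libraries. Id1 and Id2 had log2 fold changes of -0.03 (SE 0.07) and -0.06 (SE 0.07). Atoh7, the proneural factor of ganglion cell precursors, had 623 ± 106 CPM in mutant and 567.8 ± 51.5 CPM in wildtype libraries (log2 fold change 0.12, SE 0.09; edgeR, Benjamini-Hochberg adjusted p = 0.918). No target gene in the list passed the test in either direction. A p that misses the threshold does not show that these genes are unchanged.

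**Figure D5:**
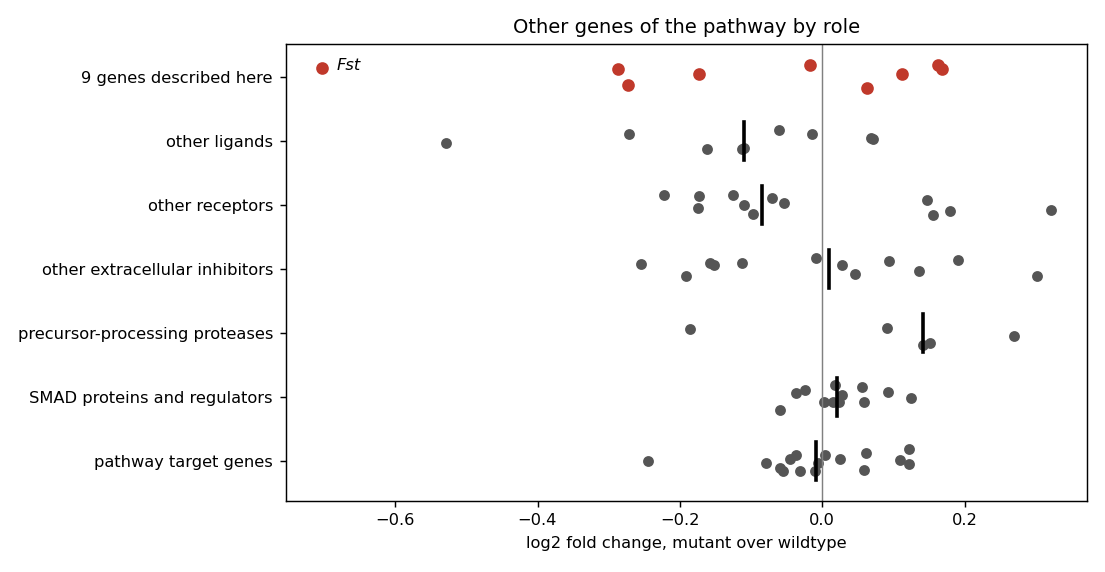
Log2 fold change of mutant over wildtype (horizontal axis) for the 9 genes described here (red) and 66 other genes of the pathway (grey) in 6 groups by role, 1 point per gene, with the median of each group of other genes as a black line. Fst lies at -0.70, while the other 66 genes run between -0.53 and 0.32.

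Genes whose levels followed each member over the 12 libraries were ranked by Pearson's r of log2 CPM among 13700 genes with a mean of at least 1 CPM. For Fst the nearest were Parp11 (r = 0.933), Gphn (0.901) and Rcan2 (0.857). For Acvr2a the nearest were Gmfb, Zfp945 and Lamp2, each at 0.99 over the 12 libraries, which also share the split by mt-Nd6. Acvr2b was followed by Gm16001 (0.934), Rere and Hnrnpa0, Acvr1b by 2210016F16Rik (0.937), Mxd1 and Pja1, and Bmp7 by Sh3d19 (0.915), Aven and Ttc25. Those 3 members, and also Bmp2, were each highest in mutant male 6. Gdf11 was nearest to Kctd16 (0.870), Kirrel3 and Fam174b, Inhbb to Cpne4 (0.852), Chrnb3 and Frmd4a, Bmp2 to Cachd1 (0.871), Ntrk2 and Sh3d19, and Bmp4 to Pacrgl (0.836), Gm9828 and Terf2ip. These correlations describe 12 libraries that also share depth and library set, and no test was made of them. Genotype was not removed first, so a genotype difference held in common, as with Fst, can raise them.

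In genome build mm10, as the tables list them, Fst lies at chr13:114452262-114458730 on the minus strand and Inhba at chr13:16011851-16027211 on the plus strand. Inhbb lies at chr1:119415465-119422248 (minus), Bmp2 at chr2:133552159-133562885 (plus), Bmp4 at chr14:46383520-46390669 (minus) and Bmp7 at chr2:172868012-172940321 (minus). Gdf11 lies at chr10:128882295-128891718 (minus), Acvr2a at chr2:48814109-48903269 (plus), Acvr2b at chr9:119402444-119433501 (plus) and Acvr1b at chr15:101174067-101213679 (plus). All 10 are listed as protein-coding, and the counts are given per gene.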

How the data were processed

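RNA was sequenced from 12 pools of retinas, 3 in each of 4 groups, and the total counts above set the precision of each value. The submitters' processing notes name CASAVA for base calls, STAR 2.5 for alignment to mm10, HTSeq 0.6.1 for gene counts and DESeq2 for their comparisons. Neither annotation release nor strand setting is given there. The authors deposited 3 tables with read counts per gene, whole and not normalized, a normalised signal per library, FPKM values, and their own log2 fold changes and p-values, per the file headers. The deposited FPKM equalled counts scaled by listed length and library total to within 0.0274%. The signal and p-value columns entered no test.

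Counts from the table of both sexes were tested with edgeR 4.0.16 in R 4.3.3, with TMM scaling, filterByExpr on the 4 groups, and the two-sided quasi-likelihood test with genotype and sex as terms. Benjamini-Hochberg adjustment ran over all 15467 genes at a threshold of 0.05. The interaction came from a fit of 4 group means. CPM values were counts over library totals, and the correlations used log2 CPM with a prior count of 2. DESeq2 1.42.0, limma 3.58.1 voom, other scalings, no filter, a replicate block, a term for the library sets, fits within them and fits without libraries were alternatives. The tests were first tried on simulated counts.

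The 10 genes and the pathway and marker lists were chosen with earlier results of these data known. The text names all 10 genes, Eomes, mt-Nd6 and Cryaa, up to 4 genes of highest FPKM in each pathway list, and the 3 genes most like each member. Bmp3, Tgfbr3, Bmpr1b and Orc4 were named after their values were seen, and none of them was called in a test. Genes outside these lists that a test did call were also named after their values were seen. The male and female tables served only for the deposited fold changes of the members.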

Additional observations from a re-analysis of the deposited data

Results flagged for a closer look

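Values of 6 gene and library pairs stood apart from the other 5 libraries of their genotype by Dixon's test at the 95% level, among 20 gene and genotype groups of 6 libraries. Chance alone flags about 1 in 20 such groups. Mutant male 6 held 4 of the 6. It had 0.756 CPM of Inhba, where the next mutant library had 0.177 CPM, and 25.5 CPM of Bmp7, where the next had 18.3 CPM. It had 77.6 CPM of Acvr2b and 117 CPM of Acvr1b, where the next mutant libraries had 59.3 and 102 CPM. The same library had the fewest genes with a read, 16903. Its part in these 4 values was not tested.

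Mutant female 6 was low in Bmp4, at 2.09 CPM where the next mutant library had 2.99 CPM. Wildtype male 6 was high in Acvr1b, at 105 CPM where the next wildtype library had 96.3 CPM. No library of Fst, Gdf11, Inhbb, Bmp2 or Acvr2a was set apart in this way.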

How the results depend on the processing

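The sign of the genotype difference held over all 22 alternatives for Fst, Inhbb, Bmp2, Bmp7, Acvr2a, Acvr2b and Acvr1b, and failed in 1 for Bmp4 and 2 for Gdf11. All alternatives reuse the same libraries, so a held sign is no independent support, least of all for Fst, which was chosen on this contrast. Gdf11 moved to -0.05 in the 5 mt-Nd6-high libraries. The count of genes called between genotypes was 4, against 15 with DESeq2, 2 with the replicate block (Eomes and Trhde), 9 with a library set term, 0 without the 3 libraries highest in Cryaa (251 at an unadjusted p under 0.05) and 1 to 5 with each library left out. For sex it was 2, against 1 both in the 7 mt-Nd6-low libraries and without the 3 highest in Cryaa, and 2 to 3 with each library left out. The interaction had 0. In the 5 mt-Nd6-high libraries some groups held a single library, so genes called for the interaction there are not given. The Fst interaction, 0.01 on the log2 scale, changed sign to -0.0159 with limma voom, -0.0026 with the replicate block, -0.0191 within the 5 high libraries and -0.26 without the 3 highest in Cryaa, and lay between -0.17 and 0.18 with each library left out. The cause of these shifts was not tested. The exon length of M21, chosen after the data were seen, gave 13.4 FPKM for Acvr2b and 1.85 FPKM for Fst. Deviations of same-numbered libraries correlated at 0.30, 0.35 and 0.21 in females, each best with its own number, and at -0.31, 0.03 and 0.44 in males, where 1 of 3 was. With male pairs at -0.31 and 0.03, and no label that gives the numbers a shared source, the numbers were not taken to pair the pools over both sexes. The library set was not removed before these correlations. Same-numbered libraries of male 4, male 5 and female 6 fell in different sets, so the correlations alone cannot settle the pairing. The replicate block changed no call of the 9 genes in the sex or interaction test. Fewer than 100 counts per library limit Bmp4, and Inhba could not be tested.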
